A study of Mus musculus with 6 samples.

Results

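Cytochrome P450 genes are described here in tuft cells sorted from the mouse ileum. The members are all genes of the deposited table whose symbol is Cyp followed by a family number, a subfamily letter and a gene number. This takes in 100 of the 23420 genes, in 38 subfamilies, and 5 of the 100 carry a pseudogene symbol. The rule uses names and no measured value. Cyp51, Cyp2ab1, Tbxas1 and Ptgis are P450 genes that it does not match, and they are given separately.

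The 6 libraries form 1 group, so there is no treated, mutant or non-tuft sample to compare them with. All came from Gfi1b-eGFP/+ mice of the C57BL/6J strain, aged 6 to 12 wk by the methods, without a further treatment in the labels. The Gfi1b locus, which is active in tuft cells of the epithelium, drives green fluorescent protein in these mice, and the sorted cells carried GFP and EpCam and lacked CD45 and propidium iodide. Each library is labelled as a mouse replicate and a figure legend calls the samples independent, but neither states that they came from separate animals, so p-values measure the spread between these samples, which may be technical. Values are TPM, the share of each gene among transcripts after correction for length, scaled to 1000000 per library. The number of reads cannot be recovered from TPM, so depth is unknown, and a gene listed at 0 may be unexpressed, too rare for the depth, or lost in the estimate.

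P450 enzymes are haem proteins that insert an oxygen atom into lipophilic substrates, with electrons passed on by NADPH-cytochrome P450 reductase in the endoplasmic reticulum or by adrenodoxin in mitochondria. Members of the Cyp1, Cyp2 and Cyp3 families oxidise drugs, plant compounds and arachidonic acid, those of the Cyp4 family hydroxylate the far end of fatty acids and eicosanoids, and others make or break down sterols, bile acids, steroid hormones, vitamin D and retinoic acid. In the small intestine they are best known from enterocytes, the absorptive cells, in which dietary and foreign compounds induce several of them through nuclear receptors and the aryl hydrocarbon receptor.

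A list of 14 tuft cell genes was looked at, which includes Gfi1b, the locus used for the sort. All 14 were above 0 in 6 of 6 libraries, among them Dclk1 at 628.3 ± 130 TPM, Trpm5 at 1141 ± 211 TPM and Pou2f3 at 182 ± 48.7 TPM (SD, n = 6 each). The libraries also held transcripts of genes that mark other epithelial cells, and the source of these transcripts was not tested. All listed genes of enterocytes, Paneth cells, goblet cells and stem cells were above 0 in 6 of 6 libraries as well. Presence alone therefore does not check the label or the purity of the sort. Apoa1, a lipoprotein gene of enterocytes, was at 1096, 751.5, 451.7, 1444, 1186 and 714.6 TPM in replicates 1 to 6, and Fabp2, the intestinal fatty acid-binding protein gene, at 632, 360.4, 228.7, 1204, 798.2 and 562.9 TPM. Both genes were highest in replicate 4 and lowest in replicate 3. In bulk samples such as these, fewer cells of a type and less RNA per cell cannot be told apart.

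Of the 100 P450 genes, 53 were above 0 in at least 1 library (53% against 67.1% of all genes) and 47 were listed at 0 in all 6. A mean of at least 1 TPM, taken here as expressed, was reached by 30 genes (30% of the members against 51.4% of all genes), and a mean of at least 10 TPM by 13 (13% against 29.8%). The 30 expressed genes lay in 17 of the 38 subfamilies. Cyp4f17, at a mean of 1.06 TPM, was just inside the 1 TPM limit, and Cyp2b10, at 0.938 TPM, just outside it. In all, 12 members, Cyp2b10 among them, were above 0 in 1 library only. A library had 28 to 40 members above 0 and 24 to 30 of at least 1 TPM.

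Together the members amounted to 482.4, 563.1, 378.7, 708.8, 382.4 and 359.8 TPM in replicates 1 to 6, or 479.2 ± 137 TPM (SD, n = 6). Replicate 4 was the highest, and 180.5 TPM of its sum came from Cyp2c55 alone. Without that gene the sum was 446.9 ± 87.1 TPM and was highest in replicate 2, at 560.3 TPM. The order of the subfamilies was led by Cyp4f, with 48.2% of the summed level, followed by Cyp2c with 11.01%, Cyp3a with 9.40%, Cyp2s with 5.32% and Cyp27a with 5.17%. Cyp4f exceeded every other subfamily in each of the 6 libraries, whereas the neighbours below it overlapped. The place of Cyp2c rested on replicate 4. Without that library its share was 4.64%, below Cyp3a with 8.54%, Cyp2s with 6.00% and Cyp27a with 5.28%.

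**Figure D1:**
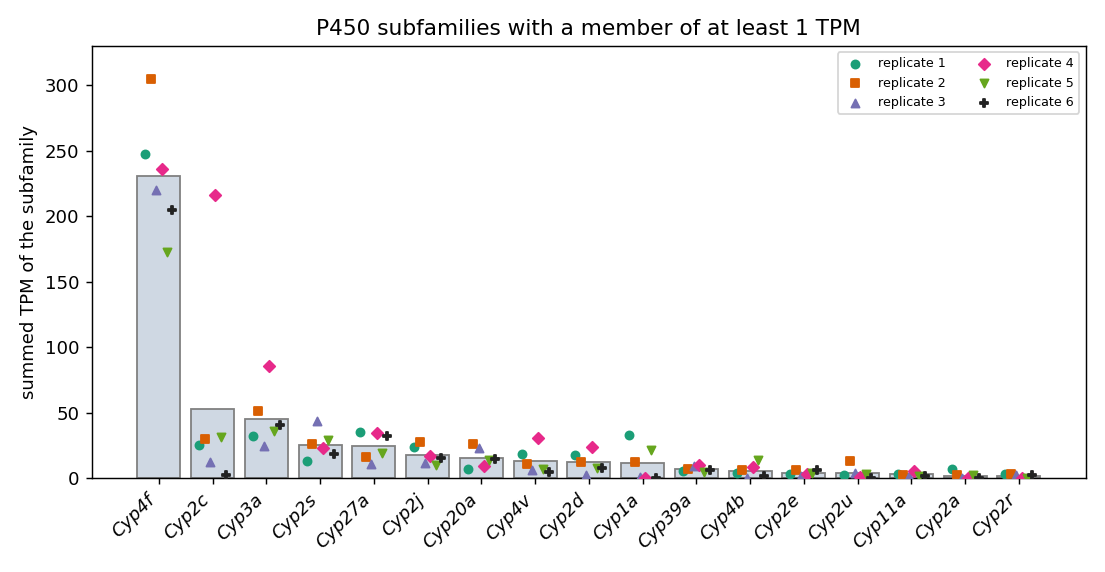
Summed TPM of each P450 subfamily that has an expressed member, with bars for the mean of 6 libraries and a point for each library. Cyp4f lies between 173 and 305.1 TPM in all libraries, and Cyp2c reaches 216.1 TPM in replicate 4 and at most 31.3 TPM elsewhere.

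Genes for the hydroxylation of fatty acids and eicosanoids, the Cyp4 family, made up 52.1% of the summed level, at 249.7 ± 48.0 TPM (SD, n = 6), and 7 of its 20 members were expressed. Its range between libraries was narrow, from 193.7 TPM in replicate 5 to 322.2 TPM in replicate 2. The Cyp4f subfamily accounted for most of it, at 230.9 ± 44.7 TPM with a 1.76-fold range. All 9 Cyp4f genes of the table were above 0 in some library, and 5 were expressed. The Cyp4a subfamily includes fatty acid hydroxylases that are induced through Ppara in liver. Of its 8 genes, 2 with pseudogene symbols, 7 were listed at 0 throughout, and Cyp4a31 reached at most 0.23 TPM.

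Cyp4f14, whose enzyme inactivates leukotriene B4 and related eicosanoids, was at 165.3, 201.7, 103.6, 170.8, 118.6 and 120.4 TPM in replicates 1 to 6 (146.7 ± 38.2 TPM, SD, n = 6). It was the most abundant member in 5 of 6 libraries and second to Cyp2c55 in replicate 4, and it held 24.1% to 35.8% of the summed level. Its lowest value exceeded the highest of every other member except that of Cyp2c55. In the same libraries Alox5, which makes leukotrienes, was at 264.4 ± 70.0 TPM and Ptgs1, which makes prostaglandins, at 311.5 ± 87.0 TPM (SD, n = 6 each).

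The next Cyp4 members were far less abundant. Cyp4f40 was at 43.6, 36.2, 83.2, 13.7, 19.8 and 24.6 TPM in replicates 1 to 6, highest in replicate 3 and lowest in replicate 4. Cyp4f13 was at 13.1, 40.6, 18.9, 37.4, 13.0 and 28.5 TPM, with replicates 2 and 4 above the others. Cyp4f16 stayed between 11.01 and 25.5 TPM, with replicates 3 and 4 the lowest. The means of Cyp4f40, Cyp4f13 and Cyp4f16 (36.9 ± 25.2, 25.2 ± 12.1 and 19.5 ± 6.50 TPM, SD, n = 6 each) differed by less than the spread between libraries.

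Cyp4v3, the mouse counterpart of a human gene of fatty acid hydroxylation that is mutated in a crystalline retinal dystrophy, was at 18.6, 10.4, 6.46, 30.6, 6.99 and 4.52 TPM. It was again highest in replicate 4. Cyp4b1 was at 3.89, 6.48, 0, 8.40, 13.7 and 1.86 TPM and so was listed at 0 in replicate 3, the library with the lowest enterocyte genes. Cyp4f17 was at 0.14 to 2.20 TPM.

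The families that act on foreign compounds and arachidonic acid, Cyp1, Cyp2 except Cyp2r1, and Cyp3, had 61 members, of which 18 were expressed and 29 listed at 0 in all libraries. Their sum was 158.2, 185.5, 104.3, 374.6, 144.6 and 90.6 TPM in replicates 1 to 6. Replicate 4 was 4.13 times as high as replicate 6, and its value was more than that of any other library. Without replicate 4 the range of this class was 2.05-fold, against 1.66-fold for the Cyp4 family with or without that library.

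Most of the height of replicate 4 was Cyp2c55, an enzyme that oxidises arachidonic acid and is known from the gut. It was at 3.08, 2.88, 0, 180.5, 7.32 and 0 TPM in replicates 1 to 6. A single library therefore made it the third member by mean, and without replicate 4 its mean went from 32.3 to 2.66 TPM. Its neighbour Cyp2c65 was at 4.72, 6.13, 2.63, 23.9, 19.1 and 2.03 TPM, high in replicates 4 and 5. Cyp2c68 was at 16.98, 20.3, 9.56, 10.4, 4.87 and 0 TPM, and so was not high in those libraries. The other 13 Cyp2c genes had means below 1 TPM, 10 of them listed at 0 in all libraries.

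In the Cyp3a subfamily, the counterpart of the human drug-oxidising CYP3A enzymes, 4 of 9 genes were expressed and the sum ran from 24.8 TPM in replicate 3 to 85.3 TPM in replicate 4. Cyp3a13, a form found in the intestine, was at 23.4, 25.9, 17.6, 38.0, 23.8 and 22.2 TPM (25.1 ± 6.86 TPM, SD, n = 6), with 1 high library and a 2.16-fold range. Cyp3a11, a major form of the mouse liver, was at 3.30, 8.32, 0.09, 17.5, 8.84 and 14.6 TPM. Both were highest in replicate 4 and lowest in replicate 3.

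Cyp1a1, which oxidises polycyclic aromatic compounds and is induced through the aryl hydrocarbon receptor, was at 33.0, 12.4, 0.67, 0.45, 21.3 and 0 TPM in replicates 1 to 6. The libraries divided into replicates 1, 2 and 5 with more than 10 TPM and replicates 3, 4 and 6 with less than 1 TPM. Cyp1a2 and Cyp1b1 were listed at 0 in all 6. Cyp2a5 was also above 0 in replicates 1, 2 and 5 and listed at 0 in the other 3.

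Cyp2s1, an enzyme of epithelia outside the liver, was at 12.8, 25.9, 43.5, 22.9, 29.0 and 18.8 TPM (25.5 ± 10.5 TPM, SD, n = 6), with its highest value in replicate 3. Cyp2j6, of a subfamily that forms epoxides of arachidonic acid, was at 14.4, 24.7, 7.50, 5.84, 8.53 and 6.95 TPM, high in replicates 1 and 2. The means of Cyp2s1, Cyp4f13, Cyp3a13 and Cyp27a1 lay between 24.8 and 25.5 TPM, and no order among them exceeded the spread between libraries.

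Among genes of sterol and bile acid metabolism, 2 of 6 members were expressed and their class summed to 32.0 ± 10.3 TPM (SD, n = 6). Cyp27a1, the mitochondrial sterol hydroxylase, was at 35.3, 16.2, 11.02, 34.3, 19.5 and 32.4 TPM, so that replicates 1, 4 and 6 lay above replicates 2, 3 and 5. Cyp39a1, which hydroxylates oxysterols, was at 4.77 to 9.90 TPM, within a 2.08-fold range. Of the enzymes of bile acid synthesis known from the liver, Cyp8b1 and Cyp7b1 were listed at 0 in all libraries and Cyp7a1 reached 0.05 TPM in replicate 4 alone.

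The hormone classes were low. Of 6 steroid hormone genes, Cyp11a1, which cleaves the cholesterol side chain, was the only 1 expressed, at 1.80 to 5.17 TPM (2.85 ± 1.30 TPM, SD, n = 6), above 0 in 6 of 6 libraries. Of the vitamin D genes, the activating hydroxylase gene Cyp2r1 was at 2.96, 3.42, 2.08, 0.12, 0.13 and 2.59 TPM, low in replicates 4 and 5, and Cyp24a1 and Cyp27b1 were listed at 0. Of the 3 genes that break down retinoic acid, Cyp26a1 and Cyp26c1 were listed at 0 in all libraries and Cyp26b1 was at 0.34 TPM in replicate 6 alone. Cyp20a1, a P450 gene without an established substrate, was at 7.21, 25.7, 23.1, 9.66, 13.8 and 14.7 TPM.

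Of the P450 genes outside the symbol rule, Cyp51, the lanosterol demethylase of cholesterol synthesis, was at 121, 98.6, 57.2, 67.7, 63.6 and 83.4 TPM (81.9 ± 24.3 TPM, SD, n = 6). This was above the mean of every member but Cyp4f14. Tbxas1, the thromboxane synthase gene, was at 0.33 TPM in replicate 2 and listed at 0 in the other 5 libraries. Ptgis, the prostacyclin synthase gene, was at 0 to 1.70 TPM and above 0 in replicates 1, 3 and 4. Cyp2ab1, named after its values were seen, was at 1.51 TPM in replicate 2 alone.

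**Figure D2:**
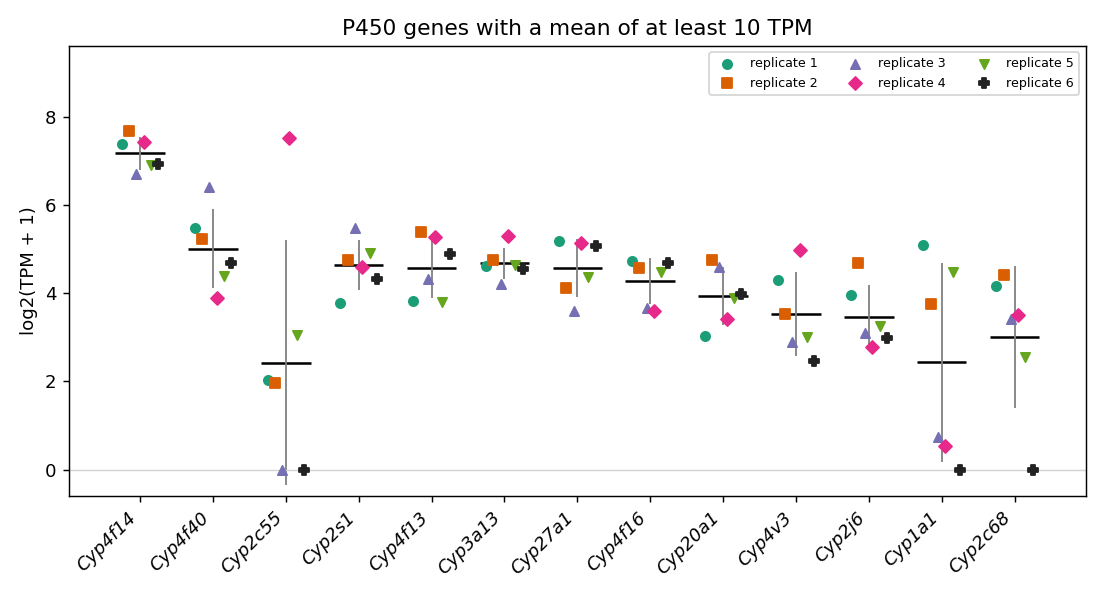
The 13 P450 genes that average 10 TPM or more, on the log2(TPM + 1) scale, with a point for each of 6 libraries, a line for the mean and a bar for 1 SD on either side. Cyp4f14 is the highest gene in all libraries except replicate 4, and Cyp2c55 and Cyp1a1 have the widest spread.

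Few members were steady. A gene was called steady if it was above 0 in 6 of 6 libraries and its highest TPM was at most 2 times its lowest. This held for 1 of the 30 expressed members, Cyp4f14, with a ratio of 1.95 (3.33% of the members against 21.5% of all genes of at least 1 TPM). Among genes of at least 10 TPM it held for 1 of 13 members, or 7.69%, against 33.8% of all genes. The share of steady genes was thus lower among members at either minimum. Over all genes, however, steady genes were more frequent at the higher minimum, and 17 of the 30 expressed members averaged under 10 TPM. Members and all genes were not matched for level, so a difference in steadiness cannot be told apart from one in level. Of the 30 expressed members, 22 were above 0 in all 6 libraries (73.3% against 89.1%), and their ratio of highest to lowest had a median of 4.31.

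The single steady call was close to its limit. Cyp3a13 with 2.16, Cyp39a1 with 2.08, Cyp4f16 with 2.31 and Cyp11a1 with 2.87 were the members next to it, and a limit of 3 times took in these 4 as well, against 48.2% of all genes. After rescaling without Rn45s and Gm20594, a pair of very abundant transcripts, the ratio of Cyp4f14 was 2.01 and no member was steady, against 22.8% of all genes. Without replicate 4 there were 4 steady members, Cyp4f14, Cyp3a13, Cyp39a1 and Cyp11a1, against 26.1% of all genes. There were 2 without replicate 3 and 2 without replicate 5, against 29.2% and 28.2% of all genes.

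Whether members varied with the enterocyte genes was examined with an index, the mean log2(TPM + 1) of Apoa1 and Fabp2, which was 9.70, 9.03, 8.33, 10.37, 9.93 and 9.31 in replicates 1 to 6. The log2(TPM + 1) of each gene of at least 1 TPM was fitted on this index with limma, and p-values were adjusted over all 12030 genes. A slope of 1 means that the gene varied between libraries in proportion to the enterocyte genes, although the added 1 flattens the slope of low genes. No member passed an adjusted p of 0.05, and neither did any other gene (0 of 30 members, 0% of all genes). The smallest adjusted p was 0.441 among members and 0.0703 among all genes.

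At an unadjusted p under 0.05 there were 7 of 30 members (23.3%) against 7.34% of all genes, by limma. Of these, 5 had a positive slope (16.7% against 1.74% of all genes) and 2 a negative slope (6.67% against 5.6%). Over all tested members, 21 of 30 slopes were positive, or 70%, against 39.3% of all genes, and the median slope was 0.24 against −0.10. These counts describe the list, and no test of the list was made. They also depended on replicate 3, as 2 of 32 members had an unadjusted p under 0.05 without it, against 3.82% of all genes. Without replicate 4 the count was 3 of 29, against 7.005% of all genes. With the exact permutation test on all 6 libraries it was 2 of 30, against 6.85% of all genes, with none past the adjusted threshold. The smallest p that this test can give is 0.00139, so no gene could pass after adjustment unless many genes reached it.

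The positive slopes belonged to Cyp2c55, Cyp4b1, Cyp2c65, Cyp3a11 and Cyp27a1. Cyp2c55 had the steepest slope, 3.14 ± 0.76 (SE; limma p = 0.00151, adjusted p = 0.441), and its Pearson r with the index was 0.815 (exact permutation p = 0.0472, adjusted p = 0.706). Its Spearman rho was 0.899 (exact p = 0.0278, adjusted p = 0.729). Without replicates 3 and 4, whose index values are the most extreme, r was 0.552, and without replicate 4 alone the slope was 1.59, so that its size rested on that library.

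Cyp4b1 had a slope of 1.56 ± 0.51 (SE; limma p = 0.0102, adjusted p = 0.590), with r = 0.809 (exact permutation p = 0.05, adjusted p = 0.709) and rho = 0.771 (exact p = 0.103, adjusted p = 0.829). For Cyp2c65 the slope was 1.38 ± 0.46 (SE; limma p = 0.0123, adjusted p = 0.591), with r = 0.783 (exact permutation p = 0.0694, adjusted p = 0.736) and rho = 0.714 (exact p = 0.136, adjusted p = 0.841). Their r without replicates 3 and 4 was 0.454 and 0.591. The slope of Cyp4b1 was 0.87 without replicate 3, in which it was listed at 0.

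Cyp3a11 had a slope of 1.55 ± 0.54 (SE; limma p = 0.0148, adjusted p = 0.591) with r = 0.738 (exact permutation p = 0.0875, adjusted p = 0.752) and rho = 0.714 (exact p = 0.136, adjusted p = 0.841). Without replicates 3 and 4 its r was −0.362. Its slope was 0.37 without replicate 3 and 1.58 without replicate 4, so the relation rested on replicate 3. Cyp27a1 had a slope of 0.70 ± 0.29 (SE; limma p = 0.0338, adjusted p = 0.655) with r = 0.764 (exact permutation p = 0.0681, adjusted p = 0.736) and rho = 0.714 (exact p = 0.136, adjusted p = 0.841). Its r was 0.261 without replicates 3 and 4, and its slope was 0.45 without replicate 3.

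The negative slopes belonged to Cyp4f40 and Cyp20a1. Cyp4f40 was highest in the library with the lowest index and lowest in that with the highest. Its slope was −1.09 ± 0.28 (SE; limma p = 0.00213, adjusted p = 0.475) and its r −0.878 (exact permutation p = 0.0181, adjusted p = 0.612). Its rho was −0.829 (exact p = 0.0583, adjusted p = 0.756), and r was −0.353 without replicates 3 and 4. Cyp20a1 had a slope of −0.70 ± 0.32 (SE; limma p = 0.0488, adjusted p = 0.677), with r = −0.766 (exact permutation p = 0.0806, adjusted p = 0.745) and rho = −0.771 (exact p = 0.103, adjusted p = 0.829). For Cyp20a1, r was −0.707 without those libraries, close to its value over all 6.

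Cyp4f14, the most abundant member, had a slope of 0.19 ± 0.22 (SE; limma p = 0.390, adjusted p = 0.896) and an r of 0.372 with the index (exact permutation p = 0.468, adjusted p = 0.925; rho = 0.257, exact p = 0.658, adjusted p = 0.960), which was −0.579 without replicates 3 and 4. Cyp3a13 reached r = 0.811 (exact permutation p = 0.0597, adjusted p = 0.720; rho = 0.657, exact p = 0.175, adjusted p = 0.861) with a shallow slope of 0.40 ± 0.24 (SE), and r was −0.396 without those libraries. The slope of Cyp3a13 was 0.22 without replicate 4 alone. An r of at least 0.8 was found for 3 of 30 members, namely Cyp2c55, Cyp3a13 and Cyp4b1, or 10%, against 2.27% of all genes, and an r of at most −0.8 for Cyp4f40 alone, or 3.33%, against 5.62%.

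Replicates 1 to 3 differed from replicates 4 to 6 in Gm20594, at 15588 to 21283 TPM against 51804 to 56441 TPM. The labels do not name a batch, and 3 libraries are too few for a correlation within each set, so the set was added to the fit as a covariate. With it, 14 genes passed the adjusted threshold (0.116% of all genes) and 0 of 30 members did, with a smallest adjusted p of 0.243. At an unadjusted p under 0.05 there were 8 members against 10% of all genes, and they were partly other members than without the covariate. Cyp2c55, Cyp4f40, Cyp4b1 and Cyp2c65 were among them in both fits, Cyp3a11, Cyp27a1 and Cyp20a1 only without it, and Cyp4v3, Cyp2d22, Cyp2c68 and Cyp1a1 only with it. The slopes of Cyp2c55, Cyp4f40, Cyp3a11, Cyp27a1 and Cyp20a1 were then 3.54, −0.70, 0.97, 0.73 and −0.89, so that of the 3 that no longer had such a p, Cyp3a11 had a shallower slope and the others did not.

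**Figure D3:**
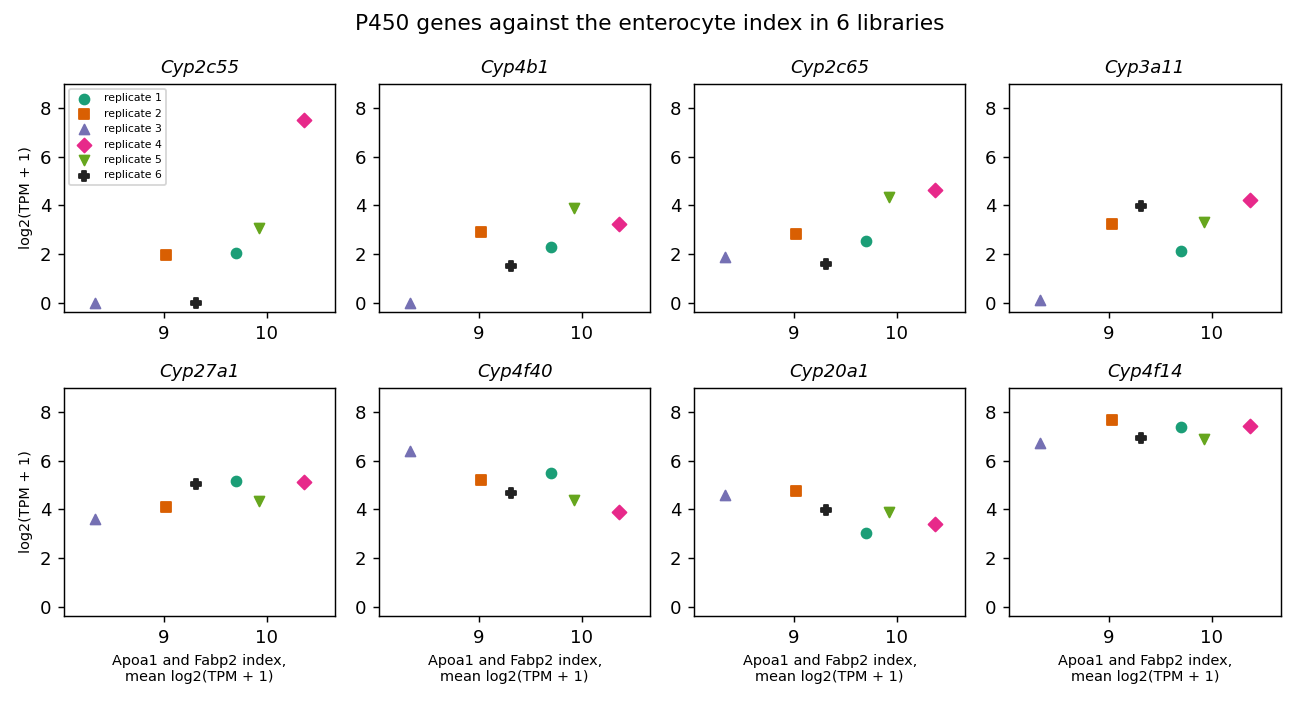
log2(TPM + 1) of 8 P450 genes against the enterocyte index of Apoa1 and Fabp2, with a point for each of 6 libraries. Cyp2c55, Cyp4b1, Cyp2c65, Cyp3a11 and Cyp27a1 have positive slopes, Cyp4f40 and Cyp20a1 negative slopes, and Cyp4f14 a slope of 0.19, and none passed the adjusted threshold.

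Other cell lists were set beside the enterocyte index, and none of 8 passed the adjusted threshold. A list of 10 Paneth cell genes, all above 0 in 6 of 6 libraries, was led by Defa24 at 5147 ± 4080 TPM (SD, n = 6). It summed to 8585, 4692, 5361, 33260.5, 19580.0 and 10305 TPM in replicates 1 to 6. Replicates 4 and 5, which had the highest enterocyte index, were also the highest here, and the mean log2(TPM + 1) of this list had r = 0.868 with the index (exact permutation p = 0.0278, adjusted p = 0.222 over 8 lists; rho = 0.886, exact p = 0.0333, adjusted p = 0.267; r = 0.888 without replicates 3 and 4). The stromal list had r = 0.478 with the index (exact permutation p = 0.344, adjusted p = 0.705; rho = 0.812, exact p = 0.0722, adjusted p = 0.289; r = 0.855 without replicates 3 and 4). The full list of 15 enterocyte genes, all found, was led by Fabp1 at 7410 ± 3269 TPM and summed to 15411, 11596, 6186, 10472, 7057 and 8124 TPM. Its sum was highest in replicate 1, as was Fabp1. Its mean log2(TPM + 1), in which each gene has the same weight, was 6.60, 6.26, 5.83, 7.46, 6.77 and 6.54, and so was highest in replicate 4 and lowest in replicate 3 like Apoa1 and Fabp2, which are in the list. An r of at least 0.8 with this mean was found for 2 of 30 members, Cyp2c55 and Cyp3a13 (6.67% against 2.06% of all genes). The part of any of these cell types in the member values was not tested.

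Against the lists of the other cell types, r of at least 0.8 was found for 0 to 2 of 30 members per list. On the tuft cell list, which summed to 11182, 10176, 6592, 8366, 6968 and 7013 TPM, it was 1 member (3.33% against 6.61% of all genes), Cyp4f14. Cyp4f14 had r = 0.908 with the list (exact permutation p = 0.0375, adjusted p = 0.560; rho = 0.829, exact p = 0.0583, adjusted p = 0.667). The most abundant member thus had its largest r with the tuft cell genes, but neither this relation nor that with the enterocyte genes passed adjustment. The difference between the 2 relations was not tested. An r of at least 0.8 with the tuft cell list was no more frequent among members than among all genes. Without replicates 1 and 2, whose tuft cell values are the highest, r was 1.00, but over 4 libraries only and without a p-value or a share of all genes beside it.

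Of the remaining lists, the 5 stem cell genes, led by Olfm4 at 501.4 ± 173 TPM (SD, n = 6), had 2 members with r of at least 0.8 (6.67% against 7.02% of all genes). These were Cyp2c68, with r = 0.826 (exact permutation p = 0.0167, adjusted p = 0.617; rho = 0.829, exact p = 0.0583, adjusted p = 0.630; r = 0.645 without replicates 2 and 6), and Cyp2u1, with r = 0.804 (exact permutation p = 0.0542, adjusted p = 0.665; rho = 0.829, exact p = 0.0583, adjusted p = 0.630; r = 0.246 without those libraries). The 9 enteroendocrine genes, led by Sct at 383.8 ± 50.5 TPM, had 1 (3.33% against 2.82%), Cyp2s1, with r = 0.838 (exact permutation p = 0.0486, adjusted p = 0.836; rho = 0.886, exact p = 0.0333, adjusted p = 0.917; r = 0.895 without replicates 1 and 5). The 5 hepatocyte genes had 1 (3.33% against 2.58%), Cyp1a1, with r = 0.827 (exact permutation p = 0.0903, adjusted p = 0.995; rho = 0.6, exact p = 0.242, adjusted p = 0.999; r = 0.892 without replicates 2 and 3). Of these genes, Alb, Fgb and Apoh were listed at 0 in all libraries and Ttr, the most abundant, was at 0 to 10.7 TPM.

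The Paneth cell list had 0 members (0% against 1.76% of all genes). The 7 goblet cell genes, led by Zg16 at 848.3 ± 511 TPM, had 0 (0% against 1.8%), as did the 7 lymphocyte genes found of 8, led by Ptprc at 112.3 ± 42.0 TPM (0% against 1.77%). The 6 stromal genes also had 0 (0% against 1.5%). Col1a2 was listed at 0 in all libraries, and Dcn, the most abundant, was at 59.4 TPM in replicate 5 and at 0 in the others.

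Replicate 4 held the highest value of 11 of the 30 expressed members, or 36.7%, against 12.9% of all genes of at least 1 TPM. Replicates 1, 2, 3, 5 and 6 held 5, 7, 2, 1 and 4 of them, or 16.7%, 23.3%, 6.67%, 3.33% and 13.3%, against 20.4%, 20.9%, 23.7%, 11.1% and 10.9% of all genes. The 11 include Cyp2c55, Cyp3a13, Cyp3a11, Cyp4v3 and Cyp2c65. Cyp2b10, a gene best known for its induction through the receptor CAR, was at 5.63 TPM in replicate 4 and listed at 0 in the other 5 libraries. In pairs of the 30 expressed members, 20 of 435 had r of at least 0.8 over the 6 libraries. This was 4.6%, against 3.72% of all pairs of tested genes. Among members of at least 10 TPM it was 2 of 78, or 2.56%, and the share for all genes at that minimum was not calculated. Most pairs of members thus had r below 0.8.

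Of a list of 8 genes for electron donors and other partners of P450 enzymes, the RNA of all 8 was at a mean of at least 1 TPM. Por, the reductase of the endoplasmic reticulum, was at 50.9, 43.6, 27.2, 31.5, 19.8 and 16.2 TPM in replicates 1 to 6. Cytochrome b5, listed as Cyb5, was the most abundant at 429.2 ± 141 TPM (SD, n = 6), and Cyb5b, Cyb5r3 and Pgrmc1 were steady, at 74.3 ± 15.9, 96.2 ± 24.9 and 100.3 ± 16.7 TPM. Of the mitochondrial partners, Fdx1 was at 33.1 ± 13.0 TPM and Fdxr at 2.56 to 26.4 TPM. None of the 8 passed the adjusted threshold on the enterocyte index, and at an unadjusted p under 0.05 there was 1, Fdxr (beside 5.6% of all genes that had a negative slope and such a p), at a slope of −1.17 ± 0.43 (SE; limma adjusted p = 0.601).

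Of 13 receptors and partners that control P450 genes, 10 were expressed. Hnf4a, which drives many genes of the intestinal epithelium and liver, was at 144.4, 141.2, 147.3, 127, 148.2 and 95.1 TPM (133.9 ± 20.5 TPM, SD, n = 6) and was steady, as were the vitamin D receptor gene Vdr at 78.0 ± 16.0 TPM and Rara at 14.9 ± 3.13 TPM. Nr1i2, which encodes the pregnane X receptor, was at 10.8, 16.8, 13.4, 15.5, 4.70 and 17.3 TPM. Nr1i3, which encodes CAR, was at 2.91 and 1.94 TPM in replicates 1 and 2 and listed at 0 in the others, replicate 4 included. Ahr was at 10.5, 10.2, 11.8, 4.28, 2.88 and 5.70 TPM, higher in replicates 1 to 3 than in 4 to 6, while Cyp1a1 was above 10 TPM in replicates 1, 2 and 5. None of the 10 passed the adjusted threshold on the index, and at an unadjusted p under 0.05 there was 1, Nr1h3 (again beside 5.6% of all genes), with a slope of −0.58 ± 0.26 (SE; limma adjusted p = 0.666).

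Lists of other pathways were looked at for steady genes, which made up 21.5% of all genes of at least 1 TPM and 33.8% of those of at least 10 TPM. The lists are small, and no difference between them was tested. All 14 cholesterol synthesis genes were expressed at 10 TPM or more, 5 of them steady, led by Fdps at 396.3 ± 129 TPM, with 0 of 14 at an unadjusted p under 0.05. All 8 genes of haem synthesis were expressed, among them Alas1, which was steady at 34.4 ± 8.37 TPM (SD, n = 6), again with 0 of 8 at an unadjusted p under 0.05. Of 12 retinoid genes 6 were expressed, led by Dgat1 at a mean of 65.3 TPM, and 0 were steady.

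Among the retinoid genes, Rbp2, the cellular retinol-binding protein gene of enterocytes, was at 11.5, 9.63, 14.0, 88.4, 68.1 and 28.1 TPM, and Aldh1a1, which makes retinoic acid, at 7.81, 7.35, 0, 17.5, 12 and 3.41 TPM. Both were highest in replicates 4 and 5. Their slopes on the index were 1.34 ± 0.43 and 1.90 ± 0.43 (SE; limma adjusted p = 0.590 and adjusted p = 0.357), so that 2 of 6 had a positive slope at an unadjusted p under 0.05, against 1.74% of all genes. Of 13 other detoxication genes 11 were expressed and 2 were steady, Sult1d1 at 46.5 ± 11.2 TPM and the most abundant, Ugt2b34, at 111.2 ± 27.2 TPM, with 0 of 11 at an unadjusted p under 0.05. None of these genes passed the adjusted threshold.

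Positions were read from GENCODE M21 on GRCm38, the assembly of the mm10 transcriptome that was used for alignment, and 96 of 100 members were found there by symbol, including all 30 expressed. Of the 9 Cyp4f genes, 8 lie within 513 kb of chromosome 17, from 32452723 to 32965718, and these include all 5 expressed ones. Cyp4f14 lies on the minus strand from 32905070 to 32917342, and Cyp4f40 on the plus strand from 32658900 to 32676914. Cyp4f15 lies between them, from 32685627 to 32703352, and was at 0 to 0.83 TPM. Cyp4f18, on chromosome 8, was at 2.86 TPM in replicate 2 alone.

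The Cyp2c genes form a longer cluster on chromosome 19, with 15 genes from 39007019 to 40187333, of which 3 were expressed. Cyp2c55 (39007019 to 39042693) and Cyp2c65 (39061015 to 39093944), both on the plus strand, lie next to each other at its start. The 9 Cyp3a genes on chromosome 5, 9 Cyp2d genes on chromosome 15 and 7 Cyp2j genes on chromosome 4 held 4, 3 and 3 expressed members. The 6 Cyp4a genes found on chromosome 4 held none.

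Genes of a cluster resemble each other in sequence, so reads can be divided between them by estimate. Transcripts of each member were compared with those of all other genes in words of 25 bases, and 9 of 30 expressed members shared under 5% of their words and 6 over 20%. Cyp27a1 and Cyp39a1 shared 0%, Cyp2s1 0.747%, Cyp3a13 1.16% and Cyp2c55 4.72%. Cyp4f14 shared 10.8% and Cyp4f40 9.10%, and each shared more with Cyp4f15 than with any other gene. The values of Cyp4f16 (31.0%, mostly with Cyp4f37), Cyp2c65 (42.3%, mostly with Cyp2c66), Cyp3a25 (54.0%, Cyp3a59), Cyp3a44 (56.8%, Cyp3a41a), Cyp2a5 (60.5%, Cyp2a4) and Cyp2c68 (69.9%, Cyp2c40) are uncertain for this reason. Cyp4f37 is not a gene of the deposited table. Of the members listed at 0 in all libraries, 23 of the 43 with transcripts shared over 20% of their words, so some of these zeros are uncertain as well.

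The coding sequences of Cyp2a5 and Cyp2a4 were 98.5% identical, and those of Cyp2c65 and Cyp2c66 96.3%. Cyp2a4 was listed at 0 in all libraries and Cyp2c66 at 0 to 1.35 TPM, so that the estimate gave nearly all of each pair to 1 gene. Of the pairs with both genes expressed, Cyp3a11 and Cyp3a44 were 94.9% identical, Cyp4f14 and Cyp4f40 80.7%, and Cyp2c55 and Cyp2c65 75.5%. The longest coding run that each of these pairs shares is given, since a read inside it cannot be assigned to either gene by sequence. Each run is in lower case, 5′ to 3′, from the GENCODE M21 transcripts, at bases 512 to 615 of the Cyp3a11 coding sequence, 1502 to 1560 of Cyp4f14 and 988 to 1025 of Cyp2c55.
Cyp3a11 and Cyp3a44: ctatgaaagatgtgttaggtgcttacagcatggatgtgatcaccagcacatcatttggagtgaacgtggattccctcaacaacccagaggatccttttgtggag
Cyp4f14 and Cyp4f40: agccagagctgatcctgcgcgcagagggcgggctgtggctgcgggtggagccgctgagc
Cyp2c55 and Cyp2c65: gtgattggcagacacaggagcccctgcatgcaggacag
The runs are 104, 59 and 38 bases long.

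Promoters from RefSeq on GRCm38.p6, 250 bases before to 50 after the start of each gene, were found for 25 of 30 expressed members, and motifs were searched on both strands, with the share among 27025 promoters of the same length as background. CAAAGTCCA, a core bound by HNF4 factors, was in 3 of 25, those of Cyp2c68, Cyp2c65 and Cyp3a11, against 0.477% of all promoters. GCGTG, the core bound by the aryl hydrocarbon receptor with ARNT, was in 9 of 25 against 32.5%, TATAAA in 8 against 14.2% and CCAAT in 14 against 37.9%. The half-sites AGGTCA and AGTTCA were each in 4 of 25, against 16.0% and 14.0%. GTTAAT followed by any base and then ATT, an HNF1 motif, was in 1, that of Cyp4f40, against 0.437%. A direct repeat of AGTTCA with 4 bases between the copies, an element of CAR and the pregnane X receptor, was in 0 against 0.0148%, and each such repeat also counts as AGTTCA. Binding was not measured, and a match or its absence in these windows says nothing of binding.

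The stretches around the 3 CAAAGTCCA matches are given because Hnf4a was the most abundant receptor gene of the list. A relation between Hnf4a and these members was not tested. Cyp2c68 and Cyp2c65 belong to the same subfamily and cluster, so their matches may not be independent. The match is in capitals, and each sequence is read 5′ to 3′ along the strand of its gene. They lie at chr19:39741150-39741198 on the minus strand for Cyp2c68, chr19:39060870-39060918 on the plus strand for Cyp2c65 and chr5:145879935-145879983 on the minus strand for Cyp3a11.
Cyp2c68: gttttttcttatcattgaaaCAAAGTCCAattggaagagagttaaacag
Cyp2c65: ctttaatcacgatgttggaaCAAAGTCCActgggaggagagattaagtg
Cyp3a11: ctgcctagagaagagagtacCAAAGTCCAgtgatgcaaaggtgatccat
The first base of the match lies at −77, −116 and −109 relative to the RefSeq start of the gene. GENCODE places the start of a Cyp3a11 transcript 110 bases farther upstream, at 145879964, so that this match lies at the start of that transcript.

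The 250 bases before the RefSeq start of Cyp1a1 are given because it had high values in some libraries and low ones in others, and they lie at chr9:57697363-57697612 on the plus strand. The RefSeq start that follows them, 57697613, is also that of a GENCODE transcript, while another GENCODE transcript starts at 57687928, so the stretch lies within the gene by that annotation. They hold 1 GCGTG, in capitals, from base 197 of the stretch.
Cyp1a1: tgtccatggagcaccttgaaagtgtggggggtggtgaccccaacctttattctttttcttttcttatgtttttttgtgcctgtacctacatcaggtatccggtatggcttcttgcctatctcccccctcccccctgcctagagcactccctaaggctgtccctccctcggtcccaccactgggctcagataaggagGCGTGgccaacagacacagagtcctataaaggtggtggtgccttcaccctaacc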

How the data were processed

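RNA from sorted ileal tuft cells was sequenced in 6 libraries of 1 group. Libraries were made by a modified SMART-Seq2 method according to the paper, whereas the labels name it with a 3' polyA and a droplet preparation. The authors aligned paired-end reads with Bowtie to the UCSC mm10 transcriptome and deposited TPM values calculated by RSEM, which divides reads of similar genes by estimated shares. TopHat and DESeq2 are also named in the submitters' processing notes, and no count model was run here. Depth is unknown.

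TPM was used as deposited, on the log2(TPM + 1) scale for fits. All 12030 genes averaging 1 TPM or more, Apoa1 and Fabp2 left out, were fitted on the index with limma 3.58.1 in R 4.3.3 (trend, two-sided, Benjamini-Hochberg adjustment). Exact permutation tests used all 720 pairings of 6 libraries and the same adjustment. Medians and counts of lists were set beside those of all genes, without a test. On simulated data with 12030 genes, 26% of slopes of 1 and 97% of slopes of 2 on the enterocyte index were recovered, and 0.0423% of unchanged genes were called. The simulated slopes were planted in genes of small spread and with little noise around the line. These shares do not hold for noisier members such as Cyp2c55, whose slope had an SE of 0.76, so a steep slope in such a member could be missed. Pairs of libraries had a Spearman rho of 0.915 to 0.937 across genes, which are not independent replicates, and none of 15 pairs was identical.

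The members and lists were chosen with earlier results of these data known. Genes named are members of at least 10 TPM, members past the limma threshold, the most abundant member of each functional class, the most abundant gene of most lists, the members next to 1 TPM, Cyp51, Tbxas1, Ptgis, Apoa1 and Fabp2. Other genes, among them Cyp2c65, Cyp3a11 and Cyp4b1, were named after their values were seen. Cyb5a, Msmo1 and Bco1 were found by the older symbols Cyb5, Sc4mol and Bcmo1, and Trac was not matched. Alternatives were other scalings, pseudocounts, thresholds, indices and filters, a covariate for the set of libraries, the permutation test and leaving out each library.

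Sequences and positions came from GENCODE M21 and RefSeq. Python 3.11.15, numpy 2.4.6, pandas 2.3.3, scipy 1.17.1, matplotlib 3.10.9 and Biopython 1.88 were used.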

Additional observations from a re-analysis of the deposited data

Results flagged for a closer look

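Dixon's test was applied to 46 measures, and in 8 of them a library stood apart from the rest at the 95% level for 6 libraries. The ratio given is the gap to the nearest library over the whole range. A rate of about 1 in 20 measures, or 2.3 of 46, holds for normal values. TPM is skewed and cannot go below 0, so more of these, and on the high side, come with the scale. In all 8 the library was on the high side, and 4 were in replicate 4.

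Cyp2c55 was at 180.45 TPM in replicate 4 and at most 7.32 TPM in the others (ratio 0.959). Cyp2d34 was at 8.44 TPM in replicate 4 and at most 0.93 TPM in the others (0.890). Cyp3a44 was at 10.8 TPM in the same library, against 3.77 TPM in the nearest (0.680), and Cyp2j9 at 7.25 TPM, against 2.45 TPM (0.662). In replicate 2, Cyp2u1 was at 13.41 TPM, against 3.83 TPM in the nearest library (0.720), and Tbxas1 at 0.33 TPM while listed at 0 in the other 5 (1). Cyp2a5 was at 7.33 TPM in replicate 1, against 2.45 TPM (0.666). The stromal list, not a P450 measure, had a mean log2(TPM + 1) of 1.98 in replicate 5, against 0.47 in the nearest library (0.760). The cause of these values was not tested.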

How the results depend on the processing

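Rescaling without Rn45s and Gm20594, which raises every value by 1.33 to 1.61 times, took the summed level of the members from 479.2 to 695.2 TPM, the steady members from 1 to 0 and 5 of 21 means of named members beyond 1 SD. Under median-of-ratios rescaling 0 of 21 means moved beyond it. In place of 30 expressed members there were 34 after rescaling without Rn45s and Gm20594, against 53.8% of all genes. There were 37 at a minimum of 0.5 TPM (55.4%), 19 at 5 TPM (38.9%) and 23 above 0 in 6 of 6 libraries (47.2%). Limits of 1.5 and 3 times gave 0 and 5 steady members, against 4.31% and 48.2% of all genes. With each library left out in turn there were 29 to 33 expressed members, 433.3 to 503.1 TPM in sum and 1 to 4 steady members. The sum without Cyp2c55 and the subfamily and class sums without a library were chosen after the values were seen, as were the alternatives for Cyp2c65, Cyp3a11 and Cyp4b1.

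By limma, 0 members passed the adjusted threshold on the enterocyte index under each alternative run, with 2 to 9 at an unadjusted p under 0.05, against 3.82% to 10% of all genes. The 9 were of 53 members, with each gene above 0 in a library tested, and 8 was the most in the other fits. The count over all genes was 3 under either rescaling, 1 with Fabp2 alone as the index, 14 with the set of libraries as a covariate and 8 without replicate 1. The median slope of all genes was −0.02 and −0.01 under the rescalings, against −0.10 as deposited. Of the 19 slopes of named members, 11 kept their sign under each alternative, and 26 of all 264 values under the alternatives changed sign. None of the 264 passed the threshold, and the cause was not tested.

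The slope of Cyp4f13, −0.01 as reported, was 0.0757 rescaled without Rn45s and Gm20594, 0.0658 by median-of-ratios, 0.0168 with Fabp2 alone and 0.25 with the list of 15 enterocyte genes as the index. With that list it was −0.14 for Cyp4f16 and −0.19 for Cyp1a1. Cyp2c68 had 0.11 with a pseudocount of 0.1, 0.40 with Apoa1 alone and 1.62 with the set covariate, in place of −0.03. Cyp4f17 had −0.0240 with Apoa1 alone and −0.37 with the set covariate, and Cyp2j6 had 0.33 with the latter. A pseudocount of 0.1 kept the sign but gave steeper slopes for Cyp2c55, Cyp4b1, Cyp3a11 and Cyp2r1. They were 4.73, 2.95, 2.58 and −1.87, in place of 3.14, 1.56, 1.55 and −0.85. With each library left out in turn, slopes ran from −0.50 to 0.19 for Cyp4f13, −0.68 to 0.55 for Cyp4f16, −0.41 to 0.41 for Cyp2c68, −0.10 to 0.32 for Cyp4f14, −0.65 to 0.0419 for Cyp2s1, −0.61 to 2.36 for Cyp1a1 and −1.04 to 0.0717 for Cyp2j6.

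No paired analysis was possible because the 6 libraries form 1 group. Without depth, no limit can be set on a gene listed at 0.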

Other observations

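The carboxylesterase genes of the detoxication list, which hydrolyse esters of drugs and lipids, included Ces2a at 191.1 TPM and Ces2c at 96.1 TPM in replicate 4, where Cyp2c55 and Cyp2b10 were also highest. In the other 5 libraries Ces2a was at 25.1 to 50.5 TPM and Ces2c at 22.3 to 29.7 TPM. Ces2e was at 161.5 TPM in replicate 4 and at 65.0 to 108.2 TPM elsewhere, and Ces1d was at 3.63 TPM there and listed at 0 in the others. None of the other genes of the detoxication list was highest in replicate 4, and Ugt2b34, the most abundant, was lowest there at 80.8 TPM. The carboxylesterase genes were set beside the P450 genes after their values were seen, and what the libraries differed in was not tested.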
